A study of Mus musculus with 6 samples.

Results

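The genes for 4 myogenic regulatory factors, Myod1, Myog, Myf5 and Myf6, and for the paired-box factor Pax7 were examined in H3K27ac ChIP-seq of mouse quadriceps. Their peaks were every listed H3K27ac region whose annotated gene, the one with the nearest transcription start site (TSS), was 1 of these 5 genes, at the start or far from it. This gave 16 of the 46988 peaks listed for control mice and 18 of the 40721 peaks listed for detrained mice. All mice were wild type, with the strain given as C57BL/6 in the labels and as male C57BL/6J in the study's methods, although the strain entries of the 2 inputs read C57BL/7 and C57BL/8. From 8 weeks of age they were housed for 4 weeks without a wheel (control, sedentary) or with a running wheel that was removed 72 hours before harvest (detrained, labelled exercised/rested). Each group had 2 H3K27ac libraries, each from a single quadriceps muscle, made with an Active Motif antibody, and 1 input library. The control libraries are called C2 and C3 and the detrained libraries Ex1 and Ex2.

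The myogenic regulatory factors are basic helix-loop-helix proteins that pair with E proteins and bind E-boxes, the letters CANNTG, in muscle genes. MyoD and Myf5 commit cells to the muscle lineage, myogenin drives their differentiation into fibres, and Myf6 (MRF4) is the member kept at high levels in adult fibres. Pax7 marks the satellite cells, the stem cells that lie beside each fibre and are few in resting muscle. Acetylation of histone H3 at lysine 27 marks active promoters and enhancers, so its density around these genes is read here as a measure of the mark in the whole muscle. In whole muscle, fewer cells carrying the mark and less mark per cell cannot be told apart.

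The upstream 250 bases of the 3 members listed in the RefSeq promoter table (GRCm38.p6, the build whose coordinates mm10 uses) are shown because these starts ran from moderately to weakly acetylated. Myod1 and Myf6 had no entry. Sequences read 5′ to 3′ along the gene and end at the base before the TSS, and capitals mark a match to any of 5 motifs searched on both strands, namely CANNTG, its subset CAGCTG, the MEF3 letters TCAGGTT, then TATAAA and the MEF2 consensus. They lie at chr1:134289754-134290003 on the plus strand for Myog, and on the minus strand at chr10:107486135-107486384 for Myf5 and chr4:139832969-139833218 for Pax7.
Myog: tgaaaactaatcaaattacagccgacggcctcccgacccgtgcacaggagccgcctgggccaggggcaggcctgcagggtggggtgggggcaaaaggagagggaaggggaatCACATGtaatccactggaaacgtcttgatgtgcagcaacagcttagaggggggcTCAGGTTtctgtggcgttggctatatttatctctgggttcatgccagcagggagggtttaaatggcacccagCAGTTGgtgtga
Myf5: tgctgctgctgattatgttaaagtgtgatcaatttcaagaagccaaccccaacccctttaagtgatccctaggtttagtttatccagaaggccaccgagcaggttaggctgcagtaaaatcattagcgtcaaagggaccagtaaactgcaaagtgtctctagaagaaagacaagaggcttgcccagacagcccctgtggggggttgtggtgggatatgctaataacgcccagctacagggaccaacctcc
Pax7: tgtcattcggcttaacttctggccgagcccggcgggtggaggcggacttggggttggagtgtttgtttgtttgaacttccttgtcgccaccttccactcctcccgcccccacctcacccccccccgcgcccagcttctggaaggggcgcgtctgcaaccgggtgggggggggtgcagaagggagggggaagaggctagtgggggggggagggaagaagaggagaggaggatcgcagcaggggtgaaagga
The Myog window held 2 E-boxes, CACATG beginning at position -138 and CAGTTG beginning at position -12 from the TSS, and the TCAGGTT match beginning at position -84. The windows of Myf5 and Pax7 held none of the 5 motifs as searched. Among the 32851 promoter windows of the same length in that table, 66.2% held a CANNTG, 13% a CAGCTG, 3.49% a TCAGGTT, 12.4% a TATAAA and 2.92% a MEF2 match on either strand. A match is a description of the letters and not evidence of binding, and GC content was 56.4% for Myog, 48.8% for Myf5 and 65.2% for Pax7.

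H3K27ac density was the number of tags, the aligned reads, per kb of peak per 10000000 tags of the library, after adding 0.5 tags, and it is called tags per kb below. The tables give pooled tags and a shrunken log2 value per library, so the tags of each library were estimated from these and the spread between libraries is understated for weak peaks. Library totals were 20805019 to 22400894 tags for H3K27ac, and 10812470 for the control and 21298438 for the detrained input. Of the H3K27ac tags, 44.7% to 49.4% lay in the listed peaks.

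All 5 genes had a peak reaching the TSS in both lists, and the order of acetylation was Myf6, Myod1, Myog, Pax7, Myf5 in control and in detrained mice. Myf6 had 76.8 and 91.9 tags per kb in control (C2, C3) against 74.1 and 70.3 in detrained libraries (Ex1, Ex2). Myod1 had 58.1 and 70.2 in control against 64.8 and 56.3 in detrained libraries. Myog, the differentiation factor, had 36.1 and 39.7 in control against 42.4 and 43.0 in detrained libraries. The satellite cell factor Pax7 had 18.8 and 18.0 in control against 19.4 and 20.2 in detrained libraries, and Myf5, another satellite cell gene, 18.2 and 16.7 in control against 15.3 and 17.8 in detrained libraries. Neighbours in this order did not overlap between libraries of a group, except Pax7 and Myf5 in control mice.

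These levels spanned most of the range of TSS peaks. The median TSS peak had 60.2 tags per kb in control (10776 peaks) and 58.7 in detrained mice (10751 peaks). The Myf6 peak stood at percentile 77.7 in control and 67.2 in detrained mice, Myod1 at 55.2 and 52.4, Myog at 19.8 and 26.9, Pax7 at 2.68 and 3.90, and Myf5 at 2.17 and 1.76. Myf6 and Myod1 lay under long peaks, called domains here, of 13694 bp and 10087 bp (control) and 15714 bp and 9837 bp (detrained), where the median TSS peak measured 2127 bp and 2119 bp. Peaks of 10 kb or longer made up 3.56% of the control and 3.32% of the detrained TSS peaks, and the detrained Myod1 peak fell just short of that length. When tags were counted per peak and not per kb, the percentiles in control mice were 98.7 for Myf6, 95.4 for Myod1, 61.8 for Myog, 23.4 for Pax7 and 13.4 for Myf5.

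**Figure D1:**
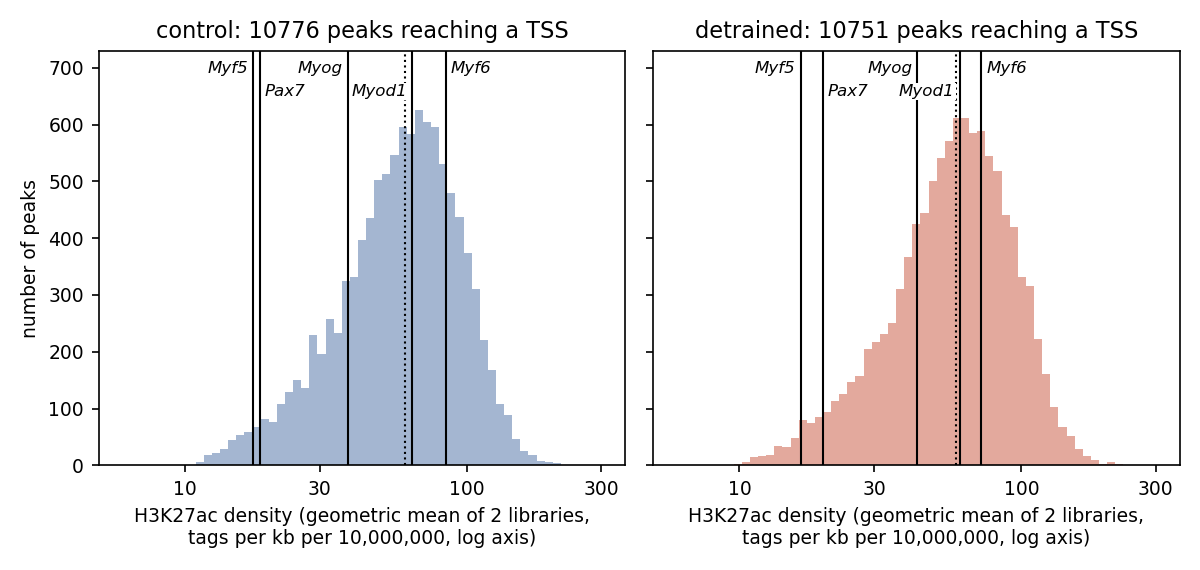
Histograms of H3K27ac density (x axis, geometric mean of the 2 libraries of a group, tags per kb per 10000000, log axis) over all peaks that reach a TSS (y axis, number of peaks) in control (left, blue) and detrained mice (right, red), with solid lines at the 5 genes and a dotted line at the median. Myf5 and Pax7 lie in the lower tail, Myog below the median of 60.2 and 58.7, Myod1 just above it and Myf6 in the upper part in both lists.

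The Myod1 domain was a single peak in each list, at chr7:46369039-46379126 (mm10) in control mice, centred 2392 bp upstream of the start in an intergenic stretch. It contained the whole of Gm45923, a noncoding gene of 1090 bp at chr7:46371403-46372492 that RefSeq also names DRReRNA and Munc, and which spans 5071 bp to 3982 bp upstream of the Myod1 start. DRReRNA is an RNA made from the distal regulatory region of Myod1. Because a peak is assigned to the nearest start, the acetylated regions further upstream carried the name Gm45923 or, farthest out, Otog. Within 100 kb of the Myod1 start, 11 control and 10 detrained peaks were listed, 1 of them annotated to Myod1 in each list 5 and 4 to Gm45923 and 3 and 4 to Otog.

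Among these, the peak centred 36556 bp upstream of Myod1 had 72.1 and 92.6 tags per kb in control against 70.0 and 69.4 in detrained libraries (log2 ratio of detrained over control -0.23). The peak centred 23063 bp upstream, on the side where the core enhancer of Myod1 is known to lie, had 49.5 and 61.1 in control against 64.5 and 57.5 in detrained libraries (0.15, or -0.004 without C2 and 0.30 without C3). Its libraries overlapped between the groups, whereas those at the farther peak did not, where the log2 ratio was -0.049 without C3 and -0.41 without C2. Over the 8 shared peaks within 100 kb of Myod1 the median log2 ratio was -0.084, with a range of -0.44 to 0.15, and at Myod1's own domain it was -0.080 with overlapping libraries.

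Myog had the most peaks in control mice, 6, against 4 in detrained mice, and the median gene with any peak had 2. Its densest region was not at the start but centred 13630 bp downstream at chr1:134301629-134305640, within the neighbouring gene Ppfia4. This peak had 80.5 and 92.2 tags per kb in control against 75.5 and 73.3 in detrained libraries, and it stood at percentile 99.2 of all control and 98.0 of all detrained peaks that reach no TSS. A weaker peak centred 9126 bp downstream, also in Ppfia4, had 39.8 and 37.9 in control against 41.4 and 33.1 in detrained libraries. Upstream, the intergenic peak at 13413 bp had 32.0 and 31.0 in control against 34.6 and 33.9 in detrained libraries. The remaining 2 control peaks of Myog were 500 bp long and weak. The one 15223 bp upstream held 28 tags and met a detrained peak over 3 bp, and the one 6503 bp upstream held 35 tags and met none.

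Myf5 and Myf6 start 8595 bp apart on the minus strand of chromosome 10, and regulatory DNA of this pair is known to extend far upstream, across Ptprq, a receptor phosphatase gene of the inner ear. Myf5 had 2 peaks in each list, over its start and 2428 bp upstream. All other acetylated regions of the locus were nearest to Myf6: the 13694 bp domain at chr10:107491420-107505114 and 3 control and 5 detrained peaks in introns of Ptprq. Summed over its peaks, Myf6 held 1281 tags per 10000000 in control and 1435 in detrained mice, more than any other member, and Myf5 held 72.2 and 70.7, the fewest.

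Of the 3 Ptprq peaks that both lists shared, 2 were strong for peaks that reach no TSS and 1 was weak. The peak 68394 bp upstream of Myf6 had 37.3 and 37.7 tags per kb in control against 46.7 and 32.9 in detrained libraries. The peak 45863 bp upstream had 41.6 and 52.7 in control against 35.5 and 35.4 in detrained libraries. The peak 41881 bp upstream had 18.0 and 11.7 in control against 15.1 and 16.9 in detrained libraries, from 32 and 54 tags in all. These stood at percentiles 81.2, 89.9 and 14.5 of control and 80.8, 75.2 and 14.6 of detrained peaks that reach no TSS. Only at the peak 45863 bp upstream did the 2 groups not overlap.

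**Figure D2:**
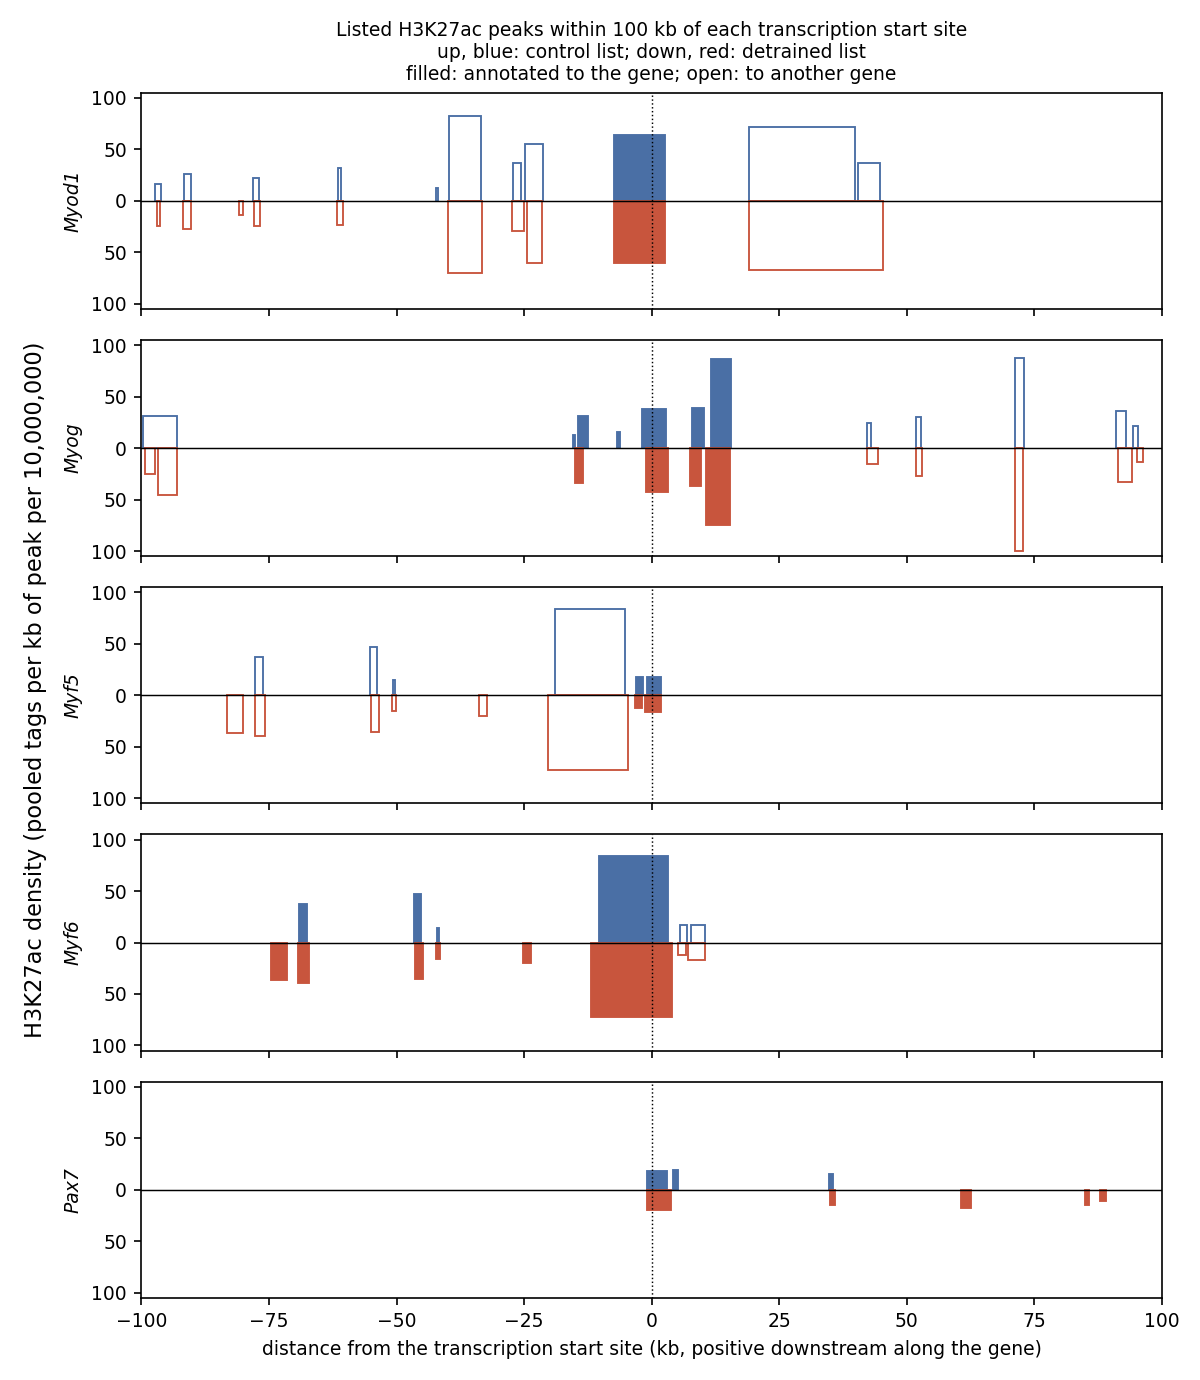
Listed peaks within 100 kb of each TSS (x axis, distance in kb, positive downstream along the gene), with control peaks drawn upward in blue and detrained peaks downward in red. The height is the pooled density (y axis, tags per kb per 10000000), and filled boxes are annotated to the gene named and open boxes to another gene. Myod1 is flanked by regions annotated to other genes, whereas every peak within 100 kb of Pax7, 3 in control and 5 in detrained mice, was its own.

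Pax7 lay on chromosome 4 with all of its peaks in its own introns or over its start, and they were weak throughout. The control peak centred 4643 bp downstream had 16.9 and 21.045 tags per kb, the latter the highest value of any Pax7 peak in a library. The start peak at chr4:139829993-139833831 held 311 pooled tags in control and 395 in detrained mice. The shared peak 35175 bp into the gene had 15.9 and 14.6 in control against 16.5 and 13.6 in detrained libraries, from 60 and 68 pooled tags. At 60 tags the exact Poisson interval of 95% for the pooled density of 14.97 ran from 11.4 to 19.3 tags per kb, which covers counting error only.

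The comparison of the lists asked which acetylated regions of these genes were found after training and rest and which in sedentary mice. Of the 16 control peaks, 13 were shared with the detrained list, meaning a one to one overlap that took up at least 50% of both peaks, 1 overlapped a detrained peak without being shared and 2 had no overlapping detrained peak (Myog 6503 bp upstream and Pax7 4643 bp downstream). Over all control peaks 27.9% had none. Of the 18 detrained peaks, 13 were shared and 5 had no overlapping control peak, 2 nearest to Myf6 and 3 to Pax7, and 18.0% of all detrained peaks had none. By bases, 89.1% of the control and 73.8% of the detrained member peaks lay in a peak of the other list, against 74.5% and 76.5% for all peaks. The lowest share was that of Pax7 in detrained mice, 47.1%, and for Myf6 in detrained mice it was 68.0%.

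The densest of the unmatched peaks lay 73050 bp upstream of Myf6 in an intron of Ptprq, at chr10:107566186-107569372. It held 500 pooled tags, with 35.6 and 37.2 tags per kb in Ex1 and Ex2. Of the 11572 detrained peaks with at least as many tags, 20 (0.173%) had no overlapping control peak. Beside it, the shared peak 68394 bp upstream of Myf6 was listed in both groups. The 120 bases of the plus strand around the midpoint of the unmatched peak, chr10:107567720-107567839 in GRCm38.p6, are shown because this was the densest member region listed in 1 group alone. Capitals mark a match to the MEF2 consensus, and the window runs into a stretch of repeated tg and had a GC content of 31.7%.
Myf6, 73050 bp upstream: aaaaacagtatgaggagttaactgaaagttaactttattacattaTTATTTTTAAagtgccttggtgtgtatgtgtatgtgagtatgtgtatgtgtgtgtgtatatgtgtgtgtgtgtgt
The other unmatched peaks were weaker. The peak 24392 bp upstream of Myf6 held 134 pooled tags, with 20.9 and 20.2 tags per kb in Ex1 and Ex2, and 5.19% of detrained peaks at least as strong had no overlapping control peak. In Pax7, the detrained peaks 61657 bp, 85351 bp and 88503 bp into the gene held 150, 51 and 54 pooled tags, and the corresponding shares were 4.39%, 15.3% and 14.8%. The control peak 4643 bp into Pax7 held 88 tags, with a share of 12.6%. The control list has no values for the regions listed in detrained mice alone, so no ratio was formed there.

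Tags were also summed over the shared peaks of each gene, since a region listed in 1 group alone has no value in the other. The 2 shared Pax7 peaks held 85.9 and 81.9 tags per 10000000 in control against 107 and 108 in detrained libraries, over 4745 bp and 5689 bp of peak. The 4 shared Myf6 peaks held 1174 and 1392 in control against 1333 and 1245 in detrained libraries, and the groups overlapped. They overlapped also for Myod1, Myog and Myf5 and for the 13 shared peaks together, which held 2566 and 2953 in control against 2818 and 2628 in detrained libraries.

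The question of whether density differed after training and rest was put to the 13 shared peaks. The tables were normalized separately and hold 2 libraries per group, which cannot give a two-sided p under 0.333 in an exact permutation test, so no test between groups was made. A peak was counted when the densities of Ex1 and Ex2 were both above, or both below, those of C2 and C3. Of the 13, 3 lay above (21.3% of all 26432 shared peaks), 4 below (27.2%) and 6 overlapped, so that 7 did not overlap against 48.5% of all shared peaks. The log2 ratios of detrained over control ran from -0.46 to 0.17 with a median of -0.068, beside -0.026 over all shared peaks, and none reached 2-fold, which 20 of all shared peaks did. These 2 medians are not alike in peak length, by which tags per kb are divided. The median log2 ratio of detrained over control length was 0.21 at the members and 0.014 over all shared peaks. The median SD within groups was 0.13 on the log2 scale at the members and 0.14 over all shared peaks.

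**Figure D3:**
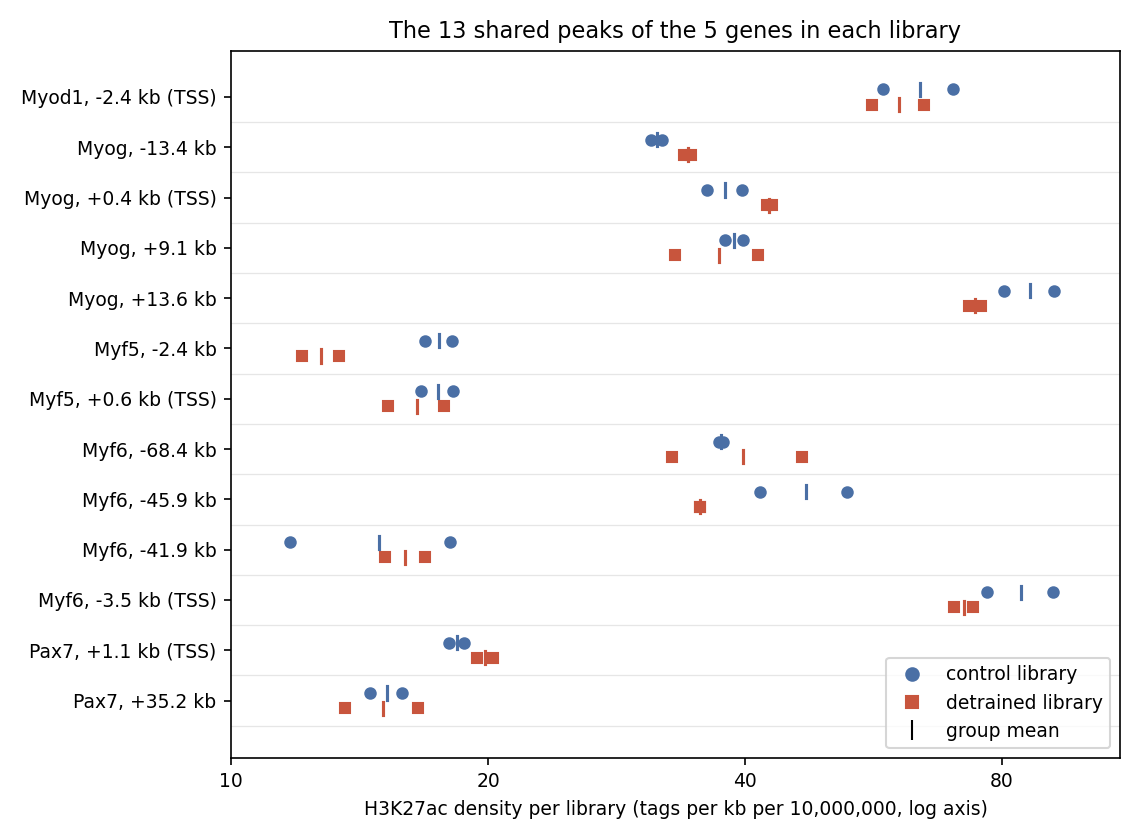
H3K27ac density of the 13 shared peaks (x axis, tags per kb per 10000000, log axis) in each library, with blue circles for control, red squares for detrained and short bars for the group means. Peaks are named by gene and by the distance of the control peak's centre from the TSS in kb, and the groups do not overlap at 7 of them.

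The 3 peaks with higher density in both detrained libraries were the start peaks of Myog and Pax7 and the upstream peak of Myog. At the Myog start, 37.9 ± 2.5 tags per kb in control mice compared with 42.7 ± 0.42 in detrained mice (SD, n = 2 each), a log2 ratio of 0.17. The exact 95% interval of the pooled tags, which covers counting error only, was 0.03 to 0.32. The difference was 2.5 times the SD within groups, and without C2 the log2 ratio was 0.11. At the Pax7 start, 18.4 ± 0.53 compared with 19.8 ± 0.59, a log2 ratio of 0.11 with an interval of -0.11 to 0.33 that includes 0. The peak 13413 bp upstream of Myog had a log2 ratio of 0.12 with an interval of -0.14 to 0.38, and with the input subtracted it was 0.25. Counted per peak it turned to -0.14, the detrained peak being 1576 bp long and the control peak 1887 bp. Counted per peak, the log2 ratio was 0.048 at the Myog start and 0.38 at the Pax7 start.

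The 4 peaks with lower density in both detrained libraries were the Myf6 domain, a Ptprq peak, the downstream peak of Myog and the upstream peak of Myf5. The peak 2428 bp upstream of Myf5 had the lowest log2 ratio among the members, -0.46, with 17.5 ± 0.92 tags per kb in control and 12.7 ± 0.90 in detrained mice (SD, n = 2 each) and a counting interval of -0.91 to -0.03, and 106 and 76 pooled tags lay behind it. With the input subtracted it was -0.60. The Ptprq peak 45863 bp upstream of Myf6 had a log2 ratio of -0.40 (interval -0.66 to -0.16). The Myf6 domain went from 84.4 ± 10.7 to 72.2 ± 2.7, a log2 ratio of -0.22 (interval -0.28 to -0.17), and the peak 13630 bp downstream of Myog had -0.21 (interval -0.32 to -0.11).

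These lower densities depended on peak length at 3 of the 4 peaks. Counted as tags per peak, the log2 ratio was -0.002 at the Ptprq peak, -0.021 at the Myf6 domain and 0.014 at the Myog downstream peak, where the detrained peaks were longer by 0.40, 0.20 and 0.23 on the log2 scale. At the Myf5 upstream peak, whose lengths were 1382 bp and 1403 bp, it was -0.44. Library C3 had the higher density of the control pair at the first 3 of these, and without it the log2 ratios were -0.23, -0.091 and -0.11, while without C2 that of the Myf6 domain was -0.35.

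At 6 shared peaks the libraries of the groups overlapped, among them the start peaks of Myod1 and Myf5. The Myod1 log2 ratio was -0.080, and its counting interval of -0.16 to -0.007, set by 2855 and 2564 pooled tags, did not reach 0 although the libraries overlapped. Its sign depended on which library was left out, being -0.22 without C2, 0.056 without C3, -0.18 without Ex1 and 0.022 without Ex2. The Myf5 start gave -0.081 (interval -0.35 to 0.20), and it gave 0.13 counted per peak and 0.083 with the input subtracted. The others were Myog 9126 bp downstream (-0.068, or -0.29 with the input subtracted), Pax7 35175 bp downstream (-0.019), and Myf6 at 68394 bp (0.064) and 41881 bp (0.13) upstream. In all, the counting interval lay above 0 at 1 member peak and below 0 at 5, beside 17.2% and 23.2% of all shared peaks, and spanned 0 at the rest.

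**Figure D4:**
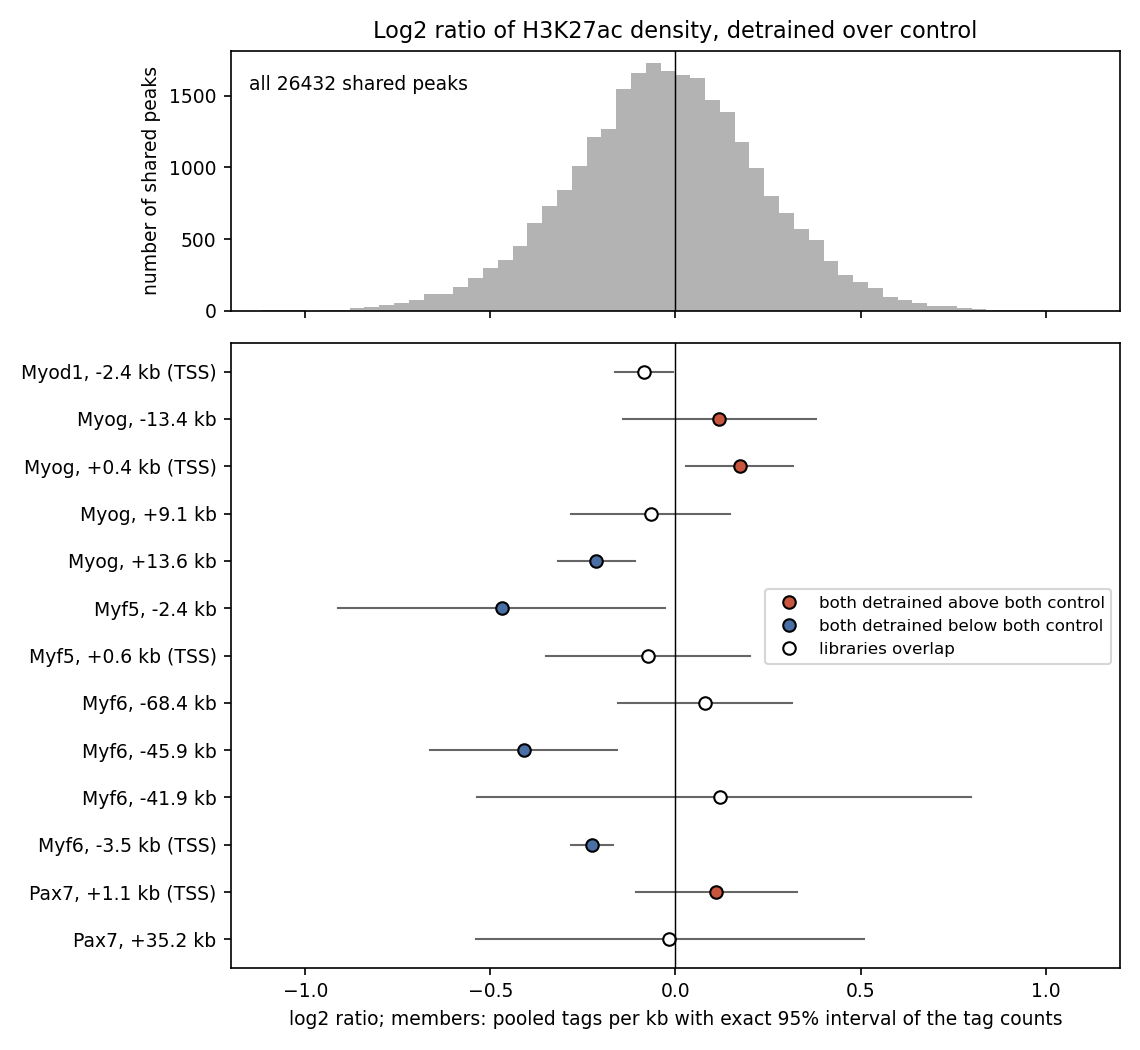
Log2 ratio of H3K27ac density, detrained over control (x axis), as a histogram over all 26432 shared peaks (top, y axis number of peaks) and for the 13 member peaks (bottom), where points are pooled tags per kb and bars the exact 95% interval of the tag counts. Red points have both detrained libraries above both control libraries, blue points below, and white points overlap. The members run from -0.47 to 0.17 on this pooled measure and lie within the spread of all shared peaks.

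None of the member peaks carried the promoter label of the annotation, which reads the centre of a peak. In the control list 6 were labelled intergenic, 6 intronic and 4 exonic, and in the detrained list 4 were intergenic, 11 intronic, 2 exonic and 1 in a 3′ UTR. The sequence under the peaks differed between loci. GC content was 36.6% to 39.7% in the 6 detrained Myf6 peaks, 53.1% to 56.0% in the 5 Pax7 peaks and 49.0% to 59.3% in the 4 Myog peaks, where the median of all detrained peaks was 48.0%. CANNTG occurred 6.40 times per kb in the Myod1 domain and 3.46 times per kb at the Pax7 start, beside a median of 4.31 in detrained TSS peaks, and every member peak held at least 1, as did 99.5% of all detrained peaks. The MEF2 consensus was held by 27.8% of the detrained member peaks, beside 28.8% of all detrained peaks, and by 18.75% of the control member peaks, beside 26.4% of all control peaks. It was found in 4 of the 5 detrained Ptprq peaks, at 0.941 and 0.655 times per kb in the 2 unmatched ones and at 1.26 and 1.18 in 2 of the shared ones, and at 0.191 in the Myf6 domain.

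Partners and regulators of these factors were described at the densest shared peak of each gene, which for some genes lay far from the start. All 3 E-protein genes, whose products pair with the myogenic factors, had one, with a median log2 ratio of 0.20, and 2 lay above and none below. Tcf3 had 64.6 and 68.3 tags per kb in control against 84.4 and 73.6 in detrained libraries. Tcf4 had 89.1 and 94.4 in control against 107 and 104 in detrained libraries, at a peak 248316 bp from its start. The log2 ratio of Tcf3 was 0.25, or 0.15 without Ex1. At Tcf12 the libraries overlapped. The tags summed over the 22 shared peaks of these 3 genes overlapped, with 4671 and 4971 per 10000000 in control against 5083 and 4644 in detrained libraries. Over all their listed peaks, 46 in control and 33 in detrained mice, both detrained sums were lower. These were 5386 and 5738 in control against 5373 and 4898 in detrained libraries.

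Genes that restrain helix-loop-helix factors showed both directions, with 10 of 11 having a shared peak, a median of 0.11, 3 above and 3 below. The first 4 were Id1 (0.15), Id2 (0.28) and Id3 (0.071), whose products bind E proteins without binding DNA, and Id4, which had no shared peak. The sign of Id1 and Id3 depended on single libraries, Id1 being -0.048 without C2 and 0.35 without C3, and Id3 -0.12 without Ex1 and 0.26 without Ex2. Of these, Id2 alone lay above, with 46.1 and 52.4 in control against 63.0 and 56.6 in detrained libraries. All 8 upstream regulators had a shared peak, with a median of -0.16, none above and 4 below, while the tags summed over their 22 shared peaks overlapped, with 3893 and 4533 per 10000000 in control against 3961 and 3891 in detrained libraries. In list order, Pax3, a relative of Pax7, gave -0.14 and Six4, a homeobox factor, 0.10 with overlapping libraries, and Eya1 and Eya2, transcriptional cofactors, gave -0.18 and -0.20 with both detrained libraries below. The 4 below were Eya1, Eya2, Lbx1 and Met, and the last, which encodes a receptor of satellite cells, had 60.9 and 80.4 in control against 49.2 and 49.8 in detrained libraries. Without C3 the log2 ratio of Met went from -0.50 to -0.30 and that of Eya1 to -0.098, and without Ex1 that of Eya2 was -0.10. Pax3 turned to 0.12 without Ex1 and stood at -0.40 without Ex2, and Six4 turned to -0.015 without C2 and stood at 0.22 without C3. Lbx1 and Met were named after their values were seen.

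Of 20 target genes of these factors in differentiation, 13 had a shared peak, with a median of 0.044, 2 above and 3 below. Mymk, Myh3, Chrnd, Chrng and Tnnt3 had no annotated peak in either list, and Chrna1 and Tnni1 none in the detrained list. In list order, Mymx, a fusion gene, gave -0.009 (0.066 without C2). Des, which encodes the intermediate filament desmin, was read at a peak 14276 bp upstream. It had 107 and 127 tags per kb in control against 91.2 and 89.2 in detrained libraries (-0.37, below, and -0.24 without C3). Ckm, the muscle creatine kinase gene, gave 0.18 with overlapping libraries, or -0.010 without C2 and 0.36 without C3. These shares of genes above or below stand beside 21.3% and 27.2% of all shared peaks.

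The tissue label was checked against marker genes. Of 6 myofibre markers 5 had listed peaks in both groups, and Tnnt3 had none. Satellite cell markers had peaks at 9 of 10 genes, Pax7 and Myf5 among them, all but Calcr, and the tags summed over their shared peaks overlapped between the groups, with 2782 and 2935 per 10000000 in control against 2844 and 2727 in detrained libraries. All 5 endothelial genes had peaks, with sums over shared peaks of 1014 and 1214 in control against 1352 and 1039 in detrained libraries. At their densest shared peaks the median log2 ratio was 0.24, with 2 above and none below. Fibro-adipogenic genes, 4 of 4 with peaks, had higher sums over shared peaks in both detrained libraries (1667 and 1650 against 1806 and 1874). These sums and the 2 endothelial peaks moved with the start peaks of Myog and Pax7, and their part in those results was not tested. Of 4 macrophage and leukocyte genes, Cd68 had no peak in either list, Ptprc had none in control, and Csf1r alone had a shared peak, at which the libraries overlapped. Over all listed peaks these genes held 161 and 126 tags per 10000000 in control against 258 and 213 in detrained libraries, which was not tested either. Adipoq and Plin1 of adipocytes had no peak, Schwann cell genes had them at 1 of 3 and genes of other organs at 1 of 5, which was Apoa1. Apoa1 had 8 control and 6 detrained peaks with 359 and 375 tags per 10000000, where Pax7 held 104 and 166. A listed peak is therefore a weak check of tissue or cell type.

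The genes whose start peaks were most alike were found by Euclidean distance over the 4 log2 densities among 9020 shared start peaks. The nearest was Ctnnb1 for Myod1 (distance 0.073), Stau2 for Myog (0.059), Fhit for Myf5 (0.16), Tgfb3 for Myf6 (0.034) and Prrg3 for Pax7 (0.053). For Myod1 the next were Nrbf2 and Oaz2, for Myog Fam110a and Xk, for Myf5 Srpx and Gm38426, for Myf6 A330023F24Rik and Sfxn3, and for Pax7 Iqsec2 and Ptpn6. Likeness over 4 libraries says only that levels were close.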

How the data were processed

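H3K27ac ChIP-seq was analysed in 2 control and 2 detrained libraries with 1 input per group (6 samples), and every column could be assigned to a group (0 left over), while the control columns are numbered unlike the labels. Reads were aligned by the authors to mm10 (Bowtie, 1.2 in the submitters' processing notes), who kept unique alignments and 1 tag per position, called peaks with HOMER on the pooled libraries of a group against its input (2-fold, FDR 0.05) and annotated each to the nearest TSS. The deposited signal is pooled tags per peak per 10000000. The authors' deposited log2 values per library are regularized log values from DESeq2 within HOMER, normalized within a table and shrunken. The deposited fold over input and adjusted p-value served only as filters in an alternative. Pooled tags were recovered as whole numbers within rounding at 100% of control and all but 1 of detrained peaks, and shared out by library total times 2 to the power of the log2 value. A peak reached a TSS when the TSS lay between its ends. Length was end minus start. Intervals were exact (Poisson, or binomial conditional on both counts) and take no account of the spread between mice.

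Named were the peaks of the 5 genes, their neighbours, the first 4 examples of each list and the 3 most alike genes. Some marker genes and genes without a listed peak were also named, and Lbx1 and Met after their values were seen. In the list of upstream regulators, 1 gene is not reported here. Members, lists and tests were chosen with earlier results of these data known. Alternatives changed scaling, length, overlap, pseudocount, input, stricter peaks and libraries. Sums over shared peaks were added after seeing the data. The overlap step was tested on made-up intervals, and the ratio of tags per peak on simulated Poisson counts without spread between mice. The sharing out of pooled tags and the division by peak length were not tested in this way. Software was Python 3.11.15 with scipy 1.17.1, pandas 2.3.3, numpy 2.4.6 and, for figures, matplotlib 3.10.9. Chromosome ends and 3 promoters were checked against GRCm38.p6.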

Additional observations from a re-analysis of the deposited data

How the results depend on the processing

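The count of shared member peaks whose groups did not overlap, 7 of 13, was 7 or 8 of 13 under the alternatives that kept all of these peaks, 5 of 7 where 80% or more of both peaks had to overlap and 6 of 12 with any one to one overlap, and ran from 9 to 11 when 1 library was left out, by construction easier to meet with a lone library on a side; it was 11 without Ex1 and 11 without Ex2. The sign of the median log2 ratio of -0.068 turned with tags per peak (0.014), with the input subtracted (0.048) and without Ex2 (0.057), and without 1 library it ran from -0.18 to 0.057. With tags per peak the ratio of the Myog peak 13413 bp upstream turned to -0.14 and that of the peak 13630 bp downstream to 0.014. The 7 peaks whose groups did not overlap on that measure were not the same peaks. Only the Myf5 peak 2428 bp upstream and the Pax7 start peak kept their direction. The groups overlapped at the Myf6 domain, the Ptprq peak 45863 bp upstream, the Myog start and the Myog peak 13630 bp downstream. The Myog peak 13413 bp upstream went from above to below. Of 84 single ratios under alternatives that kept all libraries, 67 stayed within 1 SD of the libraries in a group, 15 moved further and 2 reversed. A reversal was counted only at peaks whose groups did not overlap. Signs also turned at overlapping peaks, with tags per peak at Pax7 35175 bp downstream (-0.019 to 0.21) and at the Myf5 start (-0.081 to 0.13). With 1 library left out, 8 of 52 ratios changed sign, all at the 6 peaks whose groups overlapped, for example to -0.18 at the Myf6 peak 41881 bp upstream (0.13 with all libraries) without C3. Peaks whose groups do not overlap cannot change sign in this way, by construction. Keeping peaks at least 4-fold over input with an adjusted p under 0.001 left 8 control and 11 detrained member peaks, and the share of control bases in a detrained peak became 94.99%. All peaks within 100 kb of a member TSS numbered 32 and 34. No paired analysis was possible because columns C2 and C3 carry numbers other than those in the labels and no test was made between the groups. At the shared peaks with 32 and 54 tags (Myf6, 41881 bp upstream) and 60 and 68 tags (Pax7, 35175 bp downstream) the counting intervals ran from -0.54 to 0.80 and from -0.54 to 0.51. At this depth the counts alone leave these ranges of ratios open, and the intervals take no account of the spread between mice.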
